A study of Mus musculus with 9 samples.

Results

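A set of 264 circRNAs of the embryonic mouse cortex was described whose mean level was lower in differentiative progenitors (DP) than in proliferative progenitors (PP) and then similar in DP and newborn neurons (N). Members were chosen by measured values. Counts were scaled to each library's total as CPM, the total taken without 27 entries of very high count, and a member had a mean raw count of at least 8 over the 9 libraries, a DP/PP ratio of mean CPM of at most 0.67, and an N/DP ratio above 0.67 and below 1.5. Of the 5281 circRNAs in the table, 4291 passed the minimum mean count outside the high-count entries, and the 264 members were 6.15% of these. The DP/PP, N/DP and hence N/PP levels of the members were therefore fixed in part by the choice, are given as a description, and were not tested as a finding.

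The cells came from the lateral cortex of E14.5 embryos of C57BL/6 mice that carry a Btg2-RFP and a Tubb3-GFP reporter, each in a single copy. PP were sorted as RFP-/GFP-, DP as RFP+/GFP- and N as GFP+, with 3 biological replicates of each (PP1 to PP3, DP1 to DP3, N1 to N3). All 3 groups came from this double reporter line, and the PP gate is set by the absence of both signals, so it can hold any unlabelled cell. Total RNA was digested with RNase R before library preparation. Total counts ran from 2962787 (PP3) to 8015311 (DP3), but most counts fell on the high-count entries, and the counts outside them ran from 83572 (PP3) over 102958 (N1) to 287983 (N2).

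CircRNAs are formed when a downstream splice donor is joined to an upstream splice acceptor (back-splicing), so that 1 or more exons of a gene close into a ring. The ring has no free end, which makes it resistant to exonucleases such as RNase R and long-lived in cells that no longer divide. In the developing cortex, radial glia and other PP self-renew, DP divide to give neurons, and N leave the germinal zone, so the 3 fractions follow a lineage. The values used here were reads over the exons of each circRNA in digested RNA, not reads over the junction, and linear RNA left after digestion and circRNAs that share exons cannot be told apart in them.

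The junctions of members taken up below show what closes each ring. They were read from the mm9 genome at the ends of the circRNAs, as the last 20 bases of the last exon in lower case and the first 20 bases of the first exon in capitals, 5′ to 3′ on the strand of the gene. Tle1, Fam126a, Nup98 and Ckap5 are among the 10 smallest DP/PP ratios of members with a mean count of at least 20 and all PP libraries above all others, Ssbp2 was called lower in DP by edgeR, Ntrk2, Sos2, Gab1 and Map2k1 belong to receptor kinase signalling, and Hdgfrp3 is among the most abundant members.
Tle1 circRNA: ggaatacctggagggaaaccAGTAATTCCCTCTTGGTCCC
Fam126a circRNA: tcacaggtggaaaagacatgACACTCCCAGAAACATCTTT
Nup98 circRNA: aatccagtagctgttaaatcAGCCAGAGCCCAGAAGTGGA
Ckap5 circRNA: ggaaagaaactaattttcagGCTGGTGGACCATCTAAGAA
Ssbp2 circRNA: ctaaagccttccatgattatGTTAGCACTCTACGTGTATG
Ntrk2 circRNA: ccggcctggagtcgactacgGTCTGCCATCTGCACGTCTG
Sos2 circRNA: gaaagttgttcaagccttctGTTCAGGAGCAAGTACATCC
Gab1 circRNA: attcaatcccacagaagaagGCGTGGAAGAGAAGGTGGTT
Map2k1 circRNA: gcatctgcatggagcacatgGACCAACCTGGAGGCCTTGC
Hdgfrp3 circRNA: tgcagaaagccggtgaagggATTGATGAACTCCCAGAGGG

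In mm9 these rings lie within coding exons at chr4:71798116-71806454 for Tle1 (6 exons from exon 9), chr5:23485306-23497655 for Fam126a (8 exons from exon 3), chr7:109283078-109288164 for Nup98 (3 exons from exon 21) and chr2:91408294-91410429 for Ckap5 (3 exons from exon 13). The Ssbp2 ring spans chr13:91664190-91704299 (3 exons from exon 2), Ntrk2 chr13:58960530-58962916 (3 exons from exon 6), Sos2 chr12:70741041-70759065 (4 exons from exon 2) and Gab1 chr8:83324000-83324294 (exon 2 alone). Map2k1 lies at chr9:64060391-64062416 (2 exons from exon 2) and Hdgfrp3 at chr7:89038685-89050522 (4 exons from exon 2). All 262 members outside the mitochondrial genome were flanked by an AG before the first exon and a GT after the last, as were 99.98% of the 4288 circRNAs past the minimum outside it when GC was also allowed after the last exon. The ends were set when back-splice junctions were called, and nearly all lie at annotated exon ends. Nothing is therefore read from these shares.

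Summed over each list, the marker circRNAs followed the labels, though not every single circRNA did. The lists were chosen with earlier results of these data known, so the sums describe the groups and do not test the labels. Summed over the 8 of 22 radial glia genes with a circRNA in the table, levels were 13075, 14239 and 13904 CPM in PP1, PP2 and PP3, 5815, 6880 and 5628 CPM in DP, and 1437, 2549 and 2110 CPM in N. Within this list the Ptprz1 circRNAs rose from DP to N, from 764 to 1304 CPM and from 63.5 to 118 CPM. The first of these had the highest mean CPM of any single circRNA of the list. The Mki67 circRNAs had DP/PP ratios of 0.956 and 1.23. Over the 7 of 17 neuron genes, levels were 1094, 1166 and 1627 CPM in PP, 2809 to 4003 CPM in DP, and 14515 to 16512 CPM in N. The 2 of 12 intermediate progenitor genes, Mfng and Elavl4, were highest in DP, at 1750 to 1865 CPM against 515 to 981 CPM in PP. In such bulk samples fewer cells of a type and less RNA per cell cannot be told apart. No circRNA of the 16 endothelial, 12 mural and meningeal, 9 erythroid or 5 oligodendrocyte precursor genes was in the table. Pax6, Sox2, Eomes and Tubb3, which mark the sorted types, had none either, so a missing circRNA does not show that a cell type was absent.

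PP3 stood apart from the other PP libraries. Its circRNA counts correlated with those of PP1 and PP2 with a Spearman coefficient of 0.713 and 0.703, while PP1 and PP2 correlated at 0.922, and the 3 DP libraries at 0.940 to 0.948. The members took 9.29% of the counts outside the high-count entries in PP3, against 3.84% in PP1, 3.38% in PP2, 2.88% to 3.19% in DP and 2.99% to 3.02% in N. PP3 was the highest of the 9 libraries for 170 of the 264 members (64.4%) and for 18.1% of all 4291 circRNAs. It exceeded 2 times the mean of PP1 and PP2 for 136 members (51.5%), against 643 of all 4291. The rule chose members by a high PP mean, so these shares of members follow in part from the choice. The coefficients were taken over all circRNAs outside the high-count entries and do not depend on it. Of the 13 microglia genes, only Ikzf1 had a circRNA in the table, at 108 CPM in PP3 and at 0 to 10.1 CPM in the other libraries. The defining genes Cx3cr1, Csf1r and Aif1 had none, but neither had Pax6, Eomes or Tubb3 of the sorted types, so this decides nothing. The ganglionic eminences, meninges and olfactory bulb had been taken off at dissection. Of the 12 genes of the ganglionic eminence and interneurons only Erbb4 had circRNAs, 3 in all, with a sum of 0, 5.05 and 59.8 CPM in PP, 0 to 7.27 CPM in DP and 95.7 to 201 CPM in N. The part of such cells in the values of PP3 was not tested. N1 also differed from N2 and N3, with coefficients of 0.794 and 0.831 against 0.947 between those. The main counts, the members called by edgeR and the group medians are therefore also given without PP3.

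Without PP3, 111 of the 264 members (42.0%) still met the rule and 153 did not. Another 168 circRNAs met it that were not members. Among the 153, the DP mean was at or above the mean of PP1 and PP2 in 85 circRNAs and at least 1.5 times that mean in 20. The median DP/PP ratio of all 264 members was 0.564 with PP3 and 0.753 without it. For the 111 it was 0.558 and 0.516, and for the 153 it was 0.568 and 1.05. Over all 4291 circRNAs the median ratio was 0.990 with PP3 and 0.963 without it.

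**Figure D1:**
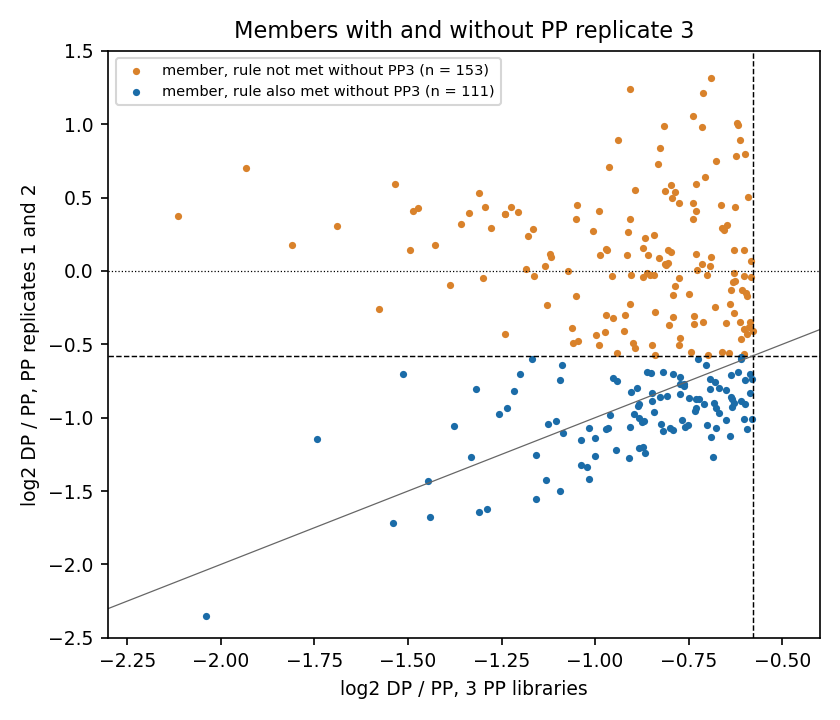
Each point is a member, with log2 of the DP/PP ratio of mean CPM over 3 PP libraries on the horizontal axis and over PP1 and PP2 alone on the vertical axis; dashed lines mark 0.67, the dotted line equal levels and the grey line equal values on both axes. The 111 blue members lie at or below 0.67 on both axes, while the 153 orange ones lie above it without PP3 and 85 of them at or above the dotted line.

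**Figure D2:**
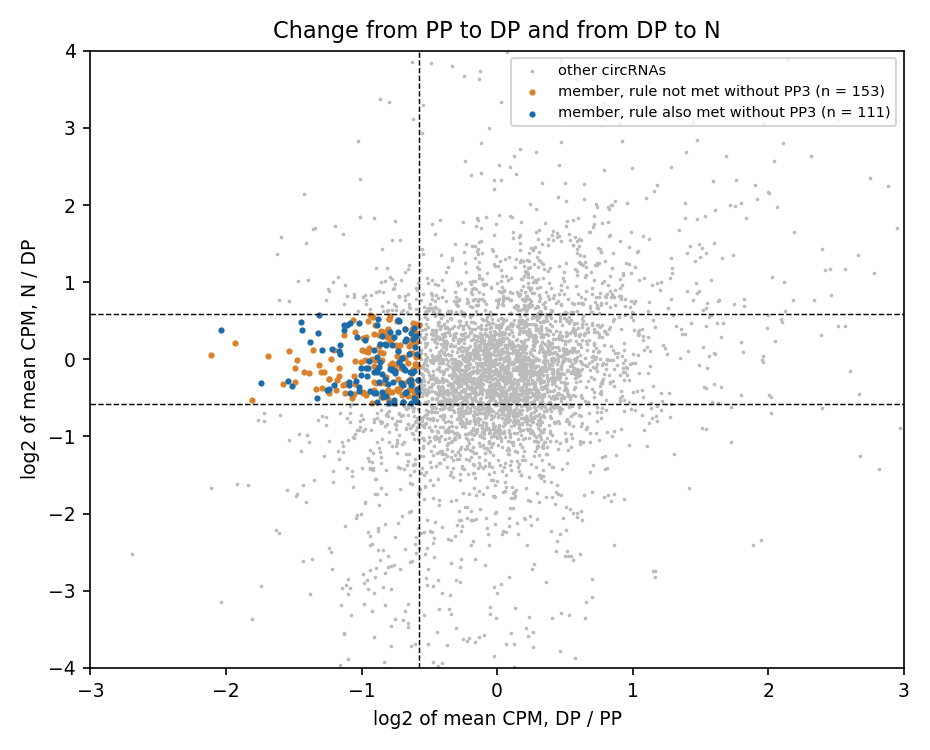
Log2 ratios of mean CPM from PP to DP (horizontal) and from DP to N (vertical) for the 4152 circRNAs within the axes, with members in blue where the rule is also met without PP3 and in orange where it is not. Members fill the box that the dashed lines of the rule cut out, and both colours are spread through it, so the ratios of means alone do not separate them.

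The level of a member in each library was also taken relative to its own DP mean. The 111 and 153 circRNAs were parted by PP1 and PP2 with and without PP3, so the PP values below describe that split and are no further evidence of it. For the 111 circRNAs, the median ratio to the DP mean was 2.02 in PP1, 1.88 in PP2 and 1.42 in PP3, 0.897 to 1.05 in the DP libraries, and 0.664, 1.08 and 1.04 in N1, N2 and N3. For the 153, it was 1.03 in PP1, 0.838 in PP2 and 3.44 in PP3, with all DP and N medians between 0.939 and 1.06. Within the first set all 3 PP libraries lay above all 3 DP libraries in 56 of 111 circRNAs, and in the second set in 18 of 153, against 7.08% of all 4291 circRNAs.

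**Figure D3:**
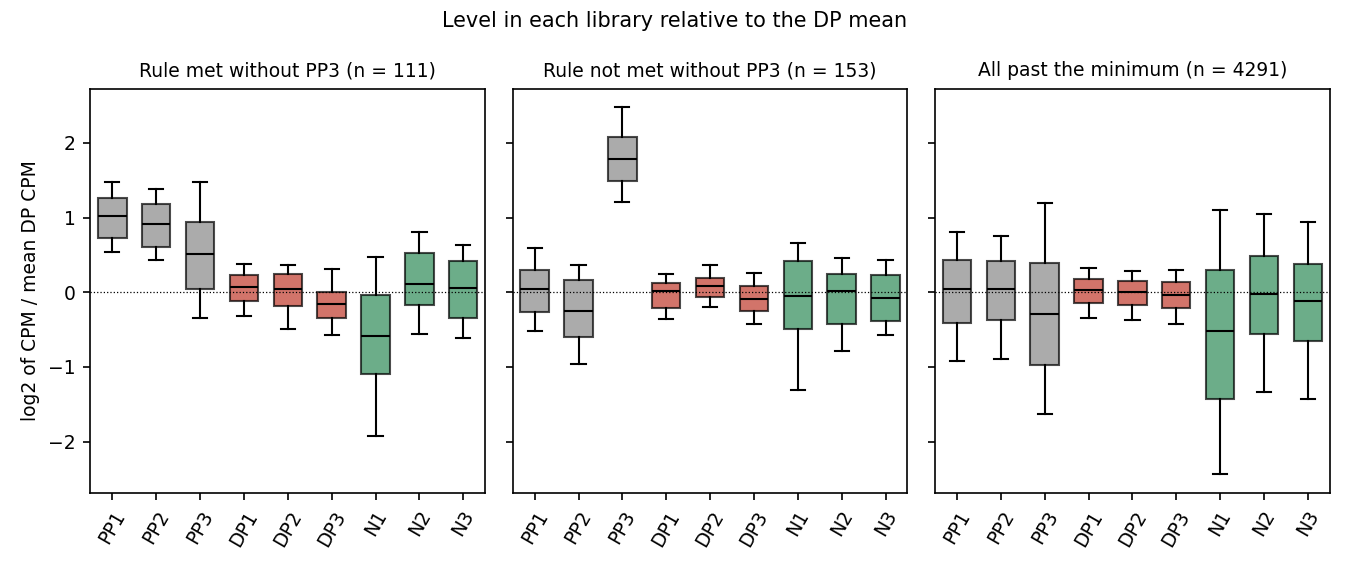
Boxes give the median and quartiles, and whiskers the 10th and 90th percentiles, of log2 of CPM over the circRNA's own DP mean in each of the 9 libraries, for the 111 members that meet the rule without PP3, the 153 that do not, and all 4291 circRNAs past the minimum; values of 0 are left out. In the middle panel PP3 stands alone at a median of 3.44 times the DP mean.

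Across all 264 members, every PP library was above every DP library in 74 (28.0%), against 7.08% of the 4291 circRNAs, and above every DP and N library in 40, against 5.17%. With PP1 and PP2 alone, the first count was 115 members against 24.1% of all. edgeR's quasi-likelihood test over all 9 libraries tested 257 members and called 2 of them lower in DP than in PP at an adjusted p under 0.05, while 0.386% of the 4406 circRNAs tested were called lower. In N against PP it called 19 members lower, where 14.4% of all were called lower. Without PP3 it called 8 of 264 members lower in DP (1.24% of 4693 circRNAs) and 28 lower in N than in PP (16.9% of all), but also 18 higher in N (18.05% of all). In N against DP, where 9.8% of all were called lower and 9.03% higher, edgeR and DESeq2 each called 0 members, and 0 were lower at an unadjusted p under 0.05 in either. The rule used these contrasts, so nothing is read from the counts. The test names single circRNAs whose spread between replicates was small enough.

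The 2 members called lower in DP were circRNAs of Fech and Ssbp2. Fech encodes ferrochelatase, which inserts iron into haem. Its circRNA was at 121, 162 and 59.8 CPM in PP, 24.4, 33.3 and 25.4 CPM in DP, and 9.71, 48.6 and 50.1 CPM in N. All PP libraries lay above all others in CPM. The raw counts were 15, 32 and 5 in PP, 7, 9 and 7 in DP, and 1, 14 and 11 in N, so the PP3 value rests on 5 counts. The log2 fold change from PP to DP was -2.11 ± 0.43 (SE, edgeR adjusted p = 0.024). Ssbp2 encodes a single-stranded DNA binding protein that takes part in LDB1 transcription complexes. The Ssbp2 circRNA was at 169, 156 and 168 CPM in PP, 52.2, 81.5 and 47.3 CPM in DP, and 97.1, 86.8 and 68.4 CPM in N, so that its PP libraries were close together (164 ± 6.83 CPM, SD, n = 3) and did not overlap with the other groups. The log2 fold change was -1.46 ± 0.35 (SE, edgeR adjusted p = 0.0496), just within the threshold. Without PP3 both calls held (adjusted p = 0.00447 for Fech and 0.0401 for Ssbp2, edgeR), but no member was called with the replicate block (0, with 38 at an unadjusted p under 0.05), with total counts as library sizes (0, with 6) or when PP1, PP2 or any DP library was left out (0, with 28 to 138). Mbd4, a DNA glycosylase of mismatch repair at methylated sites, was at 97.8 ± 24.6 CPM in PP, 33.6 ± 1.07 in DP and 27.8 ± 16.4 in N (SD, n = 3), with a log2 fold change of -1.56 ± 0.39 (SE) that missed the threshold (edgeR adjusted p = 0.0554) and passed it without PP3 (adjusted p = 0.0313). The other 5 members called lower in DP without PP3 were Ntrk2 (its ring of 3 exons), Tle1 (its ring of 6 exons), Sh3rf3, Pigs and Fsd1l, named after their values were seen, with log2 fold changes of -1.59 to -1.11.

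Among members with a mean count of at least 20 and with every PP library above every DP and N library, the 10 with the smallest DP/PP ratio came from 7 genes. Members of lower count, such as Fech and Ssbp2, had smaller ratios. The genes were Tle1, Fam126a (3 circRNAs), Stk39 (2), Pprc1, Trabd, Nup98 and Ckap5. Tle1 encodes a Groucho corepressor, which acts downstream of Notch and other signals. Its circRNA was at 290, 273 and 144 CPM in PP, 132, 115 and 105 CPM in DP, and 58.3, 142 and 105 CPM in N. PP1 and PP2 were well above the rest, while PP3 lay just above the highest DP and N libraries. A second Tle1 member, at chr4:71818497-71819451, had 185, 106 and 287 CPM in PP and 72.7 to 126 CPM in DP, so that its groups overlapped, and it did not meet the rule without PP3.

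Pprc1 encodes a coactivator of the PGC-1 family that promotes mitochondrial biogenesis. Its circRNA (counted length 4209 bases) was the only one of the 12 members of highest mean CPM that met the rule without PP3. It was at 990, 818 and 838 CPM in PP, 418, 541 and 473 CPM in DP, and 418, 257 and 296 CPM in N. The PP libraries did not overlap with the others, and the fold change from PP to N passed the threshold (log2 -1.29 ± 0.34 SE, edgeR adjusted p = 0.0102), while that from PP to DP did not (-0.92 ± 0.33, adjusted p = 0.24). Its N/DP ratio of 0.678 was close to the lower bound of the rule.

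Stk39 encodes SPAK, a kinase that activates the chloride cotransporter NKCC1, the product of Slc12a2. The larger of the Stk39 rings, at chr2:68196871-68248198, was at 314, 394 and 503 CPM in PP, 233, 237 and 160 CPM in DP, and 146, 163 and 164 CPM in N. A shorter ring that shares its end, at chr2:68196871-68236589, had 274, 374 and 431 CPM in PP against 149 to 230 CPM in DP. Both kept PP above all other libraries and were called lower in N than in PP (edgeR adjusted p = 0.0118 and 0.0174), but they share exons and are not independent. The Slc12a2 member was at 121, 156 and 108 CPM in PP, 62.6, 66.7 and 58.2 CPM in DP, and 29.1, 79.9 and 45.6 CPM in N. Its groups PP and DP did not overlap, and it too was called lower in N than in PP (log2 -1.12 ± 0.36 SE, edgeR adjusted p = 0.0323).

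Fam126a encodes hyccin, a component of the phosphatidylinositol 4-kinase complex at the plasma membrane. All 4 circRNAs of Fam126a past the minimum were members and met the rule without PP3, with DP/PP ratios of 0.468 to 0.585. The ring of 7 exons at chr5:23488968-23505837 was at 314, 283 and 287 CPM in PP, 164, 178 and 113 CPM in DP, and 87.4, 149 and 155 CPM in N. Its PP libraries were close together (295 ± 16.8 CPM, SD, n = 3), and its log2 fold change from PP to N was -1.01 ± 0.31 (SE, edgeR adjusted p = 0.0232). The rings overlap in part, so their values are not independent, and how much of the count comes from shared exons was not tested.

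Ckap5, a microtubule polymerase of the spindle, was at 274, 172 and 203 CPM in PP, 115, 152 and 135 CPM in DP, and 68.0, 97.2 and 109 CPM in N. Anapc1, a subunit of the anaphase-promoting complex, was at 338, 207 and 132 CPM in PP, 157, 159 and 127 CPM in DP, and 38.9, 174 and 100 CPM in N, with overlap between groups. Nup98, a nuclear pore protein, was at 137, 156 and 168 CPM in PP and at 132, 74.1 and 76.3 CPM in DP, so that DP1 came close to the PP libraries. The Trabd ring was at 137, 116 and 203 CPM in PP and 83.6 to 92.6 CPM in DP, and did not meet the rule without PP3, since its ratio then was 0.703.

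**Figure D4:**
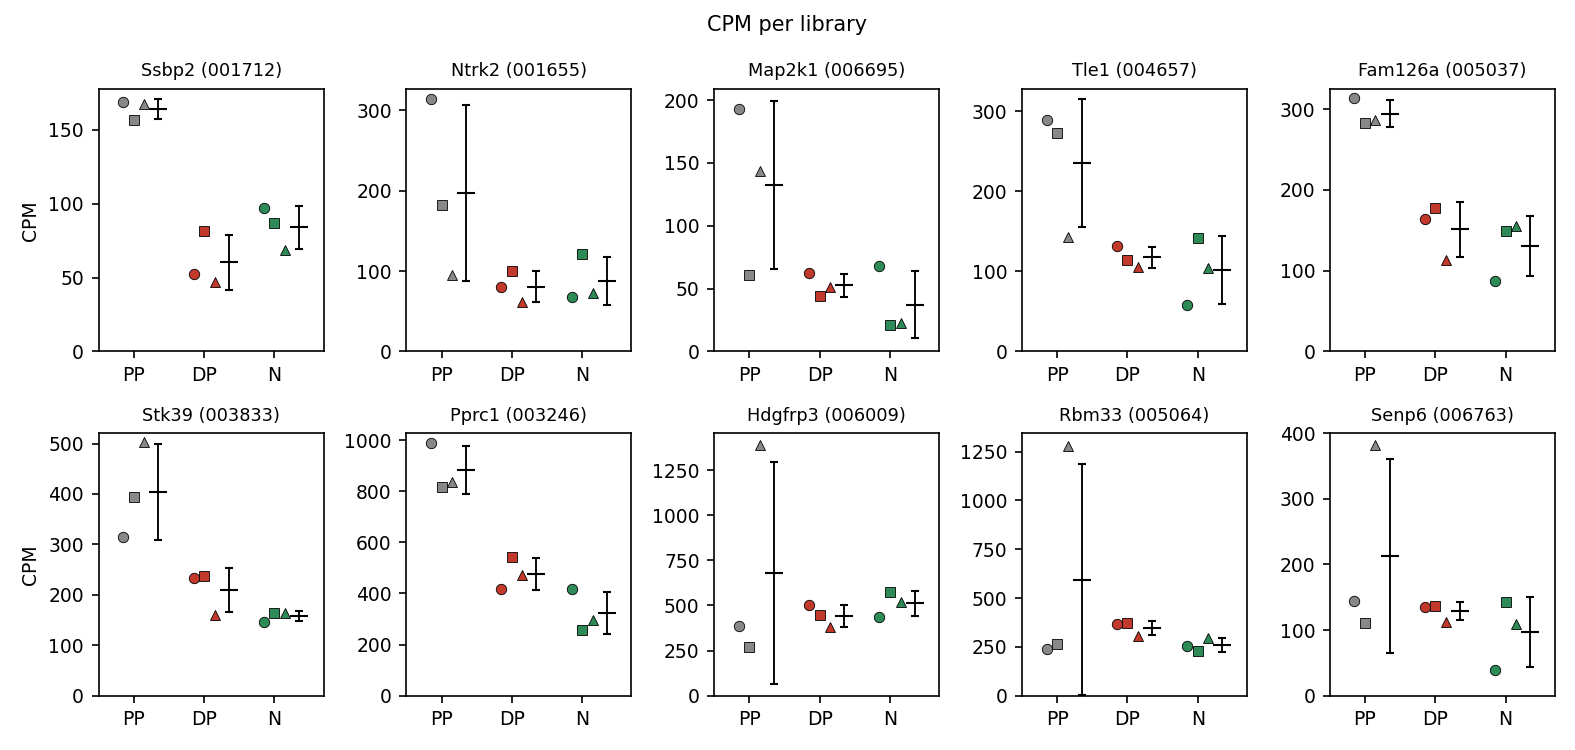
CPM per library of 10 members (title: gene and the end of the circRNA's number), with circles, squares and triangles for replicates 1, 2 and 3 and the mean ± SD (n = 3) as a bar to the right of each group. In Ssbp2, Fam126a, Stk39 and Pprc1 all PP libraries lie above DP and N, whereas in Hdgfrp3, Rbm33 and Senp6 PP replicate 3 alone is high.

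Receptor tyrosine kinases pass growth factor signals through adaptors to Ras and the MAP kinase cascade. From a list of 62 genes of FGF and other receptor kinase signalling, 94 circRNAs of 35 genes passed the minimum and 5 were members, all of which met the rule without PP3. The share of 5.32% was close to the 6.15% over all circRNAs. Ntrk2 encodes TrkB, the receptor for BDNF. Its ring of 3 exons was at 314, 182 and 95.7 CPM in PP, 80.0, 100 and 61.8 CPM in DP, and 68.0, 122 and 72.9 CPM in N. PP1 and PP2 were above all DP and N libraries and PP3 was not, and the log2 fold change from PP to DP was -1.32 ± 0.38 (SE, edgeR adjusted p = 0.104). A further Ntrk2 ring downstream, at chr13:58975689-58979623, had 96.6, 90.9 and 35.9 CPM in PP against 38.3, 44.5 and 7.27 CPM in DP, and shares no exon with the first.

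Sos2, an exchange factor that loads Ras with GTP, was at 64.4, 70.7 and 59.8 CPM in PP, 48.7, 22.2 and 25.4 CPM in DP, and 9.71, 38.2 and 27.3 CPM in N. Its PP libraries lay above all others, but its mean count of 8 was at the minimum of the rule. Gab1, a docking protein of activated receptors, was at 121, 80.8 and 71.8 CPM in PP and 73.1, 37.1 and 54.5 CPM in DP, with PP3 below DP1. Map2k1 encodes MEK1, the kinase that activates ERK. Its circRNA was at 193, 60.6 and 144 CPM in PP, 62.6, 44.5 and 50.9 CPM in DP, and 68.0, 20.8 and 22.8 CPM in N, so PP1 and PP3 were high and PP2 within the range of DP. It was called lower in N than in PP (log2 -1.87 ± 0.59 SE, edgeR adjusted p = 0.0277). Over the 94 circRNAs of the list edgeR called 3 lower and 3 higher in DP than in PP, where 0.386% and 1.48% of all circRNAs tested were called, and 9 lower and 24 higher in N than in PP, where 14.4% and 13.6% were. Without PP3 the counts were 4, 6, 11 and 29, where 1.24%, 2.66%, 16.9% and 18.05% of all circRNAs tested were called.

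The TGF-beta and BMP list had 2 members of 34 circRNAs (5.88%), near the 6.15% over all circRNAs. Bmpr1b, a type I receptor for BMPs, was at 113, 90.9 and 168 CPM in PP, 48.7, 63.0 and 43.6 CPM in DP, and 58.3, 41.7 and 18.2 CPM in N. Its PP libraries did not overlap with the others (DP/PP of 0.419), and it was called lower in N than in PP (edgeR adjusted p = 0.0275). Ski, a corepressor of SMAD proteins, had 137 ± 29.4 CPM in PP, 83.0 ± 5.68 in DP and 118 ± 36.2 in N (SD, n = 3). Itga6, a laminin-binding integrin subunit, was at 266, 177 and 108 CPM in PP, 136, 81.5 and 94.5 CPM in DP, and 48.6, 66.0 and 109 CPM in N, with PP3 inside the range of DP. Dag1, which encodes the laminin receptor dystroglycan, was at 193, 141 and 144 CPM in PP and 94.0, 126 and 87.2 CPM in DP, without overlap. Together Itga6 and Dag1 were 2 of 22 circRNAs of the extracellular matrix and integrin list (9.09%).

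Chromatin genes gave 12 members of 208 circRNAs (5.77%), and 5 of them met the rule without PP3. Eed, a core subunit of Polycomb repressive complex 2, was at 129, 111 and 251 CPM in PP, 73.1, 88.9 and 69.1 CPM in DP, and 48.6, 62.5 and 59.2 CPM in N. All its PP libraries were above the others, and it was called lower in N than in PP (log2 -1.32 ± 0.42 SE, edgeR adjusted p = 0.0287). Without PP3 that call ended (log2 -0.82 ± 0.34 SE, edgeR adjusted p = 0.0785). The rings of Asxl2, a partner of the BAP1 deubiquitinase, overlap each other and were at 87.4 ± 17.1 and 107 ± 12.9 CPM in PP against 49.3 ± 8.20 and 57.6 ± 9.55 CPM in DP (SD, n = 3). Kdm5a, a demethylase of histone H3 lysine 4, had 69.7 ± 27.7 CPM in PP and 31.2 ± 7.62 in DP, and Mll3, a methyltransferase of the same residue, 376 ± 171 and 236 ± 27.6 CPM. The 7 others, 3 of Mll1, 2 of Phf21a and those of Ep300 and Chd9, did not meet the rule without PP3. Of 10 members among 88 circRNAs of ubiquitin genes (11.4%), 3 were overlapping rings of Ube3a, and 5 of the 10 met the rule without PP3 (Birc6, Fbxl17, Usp24, Usp54 and Wwp2).

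The lists that define the lineage held no member. None of 25 circRNAs of radial glia genes and none of 24 of neuron genes met the rule. For the radial glia circRNAs the median log2 ratio from PP to DP was -1.004 (-1.11 without PP3) and it was -2.79 from DP to N. Notch1 fell further from DP to N than that median, with 1189 ± 192 CPM in PP, 649 ± 127 in DP and 9.19 ± 7.96 in N (SD, n = 3). The Ptprz1 circRNAs of the list went the other way and rose from DP to N (N/DP of 1.71 and 1.85). Members instead had a median log2 ratio of -0.83 from PP to DP (-0.41 without PP3) and -0.09 from DP to N. The lists for replication and repair (60 circRNAs), junction and polarity (60), Wnt (27), Notch (24) and Hippo (24) also had no member, and cell cycle and spindle had 2 of 94, Anapc1 and Ckap5. Of the vesicle traffic list 5 of 79 were members, of lipid and energy metabolism 2 of 38, of RNA binding and splicing 2 of 87, of synapse and channel 1 of 50, and of Hedgehog and cilium 1 of 20. No share was tested, since the members and the lists were chosen with results of these data known.

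**Figure D5:**
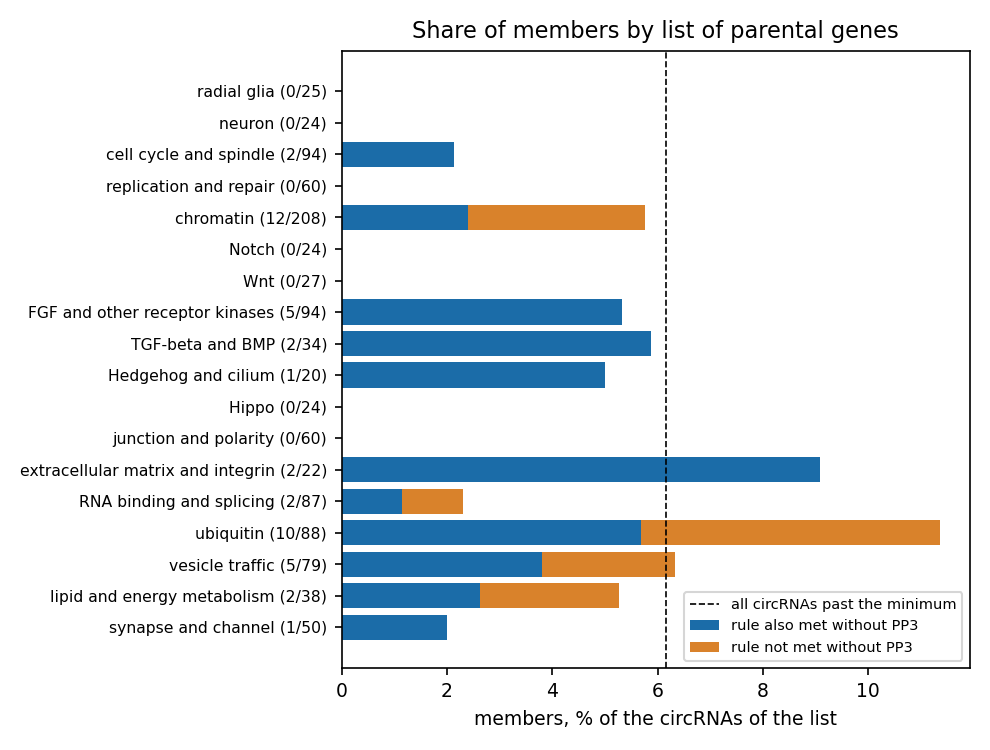
Bars give members as a percent of the circRNAs past the minimum for each of the 18 lists of parental genes with at least 20 such circRNAs (in parentheses, members and circRNAs), split by whether the rule is met without PP replicate 3. The dashed line marks 6.15% over all circRNAs, and 7 lists have no bar because they hold no member.

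The members of highest mean CPM were mostly those with a high PP3. Of the 12 with the highest mean CPM, 11 had PP3 as the highest library and did not meet the rule without it. PP3 enters that mean, but when members were ranked by the other 8 libraries, a choice made after seeing the data, 11 of the 12 were the same and PP3 was again the highest library in 11. Lmnb1, which encodes the nuclear lamina protein lamin B1, had the highest mean CPM, at 1585, 1393 and 5624 CPM in PP, 1656, 1612 and 1654 CPM in DP, and 2011, 816 and 911 CPM in N. PP1 and PP2 lay below all DP libraries, and the edgeR log2 fold change was -0.93 ± 0.57 (SE, adjusted p = 0.594). A mitochondrial entry at chrM:13273-13486 with no gene on its strand was at 998, 782 and 4607 CPM in PP against 898, 1215 and 1294 CPM in DP. Anks3 had 451, 424 and 2405 CPM in PP and 644 to 674 CPM in DP, and the larger ring of Elf2, an ETS transcription factor, 443, 197 and 2082 CPM in PP and 545 to 633 CPM in DP. Phf21a, a histone reader of the LSD1 corepressor, was at 217, 232 and 1687 CPM in PP and 382 to 415 CPM in DP, so that in Anks3, Elf2 and Phf21a the other PP libraries again lay below DP. The smallest DP/PP ratio of all members, 0.231 for Fam114a2, came from 72.4, 85.8 and 1173 CPM in PP against 73.1, 100 and 134 CPM in DP.

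Hdgfrp3, a gene of the hepatoma-derived growth factor family, gave 3 overlapping members. The ring printed above was at 386, 268 and 1388 CPM in PP, 501, 445 and 378 CPM in DP, and 437, 576 and 519 CPM in N. With PP3 its ratio DP/PP was 0.648 and without PP3 it was 1.35. Per kilobase of counted length the 3 rings had mean levels of 1041 to 1193 CPM, against a median of 237 over the members and 230 over all circRNAs.

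Of 188 parental genes, 141 had 1 member, 31 had 2 and 16 had at least 3. The latter 16 genes held 58 members, and in 14 of them no member met the rule without PP3. Senp6, a SUMO protease, had 6 members of 9 circRNAs, with DP/PP ratios of 0.603 to 0.659 with PP3 and 0.953 to 1.10 without it. In Arhgap10, all 5 circRNAs were members, and PP3 was 6.88 to 11.1 times the mean of PP1 and PP2. In Ube3a, the ubiquitin ligase of Angelman syndrome, PP3 was 4.51 to 16.6 times that mean. All 4 circRNAs each of Dtnb, Papd7, Rps6kc1 and Sergef were members, with ratios without PP3 between 0.997 (Dtnb) and 2.49 (Sergef). Eefsec, Eri3, Fbxw4, Hdgfrp3, Mll1 and Tasp1 had 3 members each, with ratios of 0.836 to 1.44 without PP3. Rbm33 had 3 members of 6 circRNAs, with ratios of 0.914 to 1.45. Fam126a and Stk39, described above, were the 2 genes whose members met the rule without PP3, in 4 of 4 and 2 of 3 cases.

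Members of 1 gene can share reads where their exons overlap. The 264 members lay at 197 loci that do not overlap on the same strand, and 109 members overlapped another member. A pair of Pms1 entries had the same ends and the same counts in all libraries, and differ in their number alone. The same genes held 178 further circRNAs past the minimum that were not members, of which 138 (77.5%) were lower in DP than in PP, against 47.8% of all 4027 non-members past the minimum, and without PP3 66.3% against 52.9%. A DP/PP ratio of at most 0.67 was seen in 22 of them (12.4%), against 9.14% of all non-members. These shares were not tested. Their median log2 ratio was -0.33 with PP3 and -0.22 without it, and how much of this comes from exons shared with members was not tested.

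The 19 members called lower in N than in PP all met the rule without PP3, and in 16 of them all PP libraries lay above all DP and N libraries. Over all 4291 circRNAs this share was 5.17%, but the 19 were picked by their call, so nothing is read from the difference. Without PP3 16 of the 19 were called again, the exceptions being Memo1, Hip1 and Eed. The number of members called lower in N was 9 with the replicate block, 4 with only PP and N in the fit, 4 with total counts as library sizes, 5 without N2 and 3 without N3, so most of these calls ended under those settings. Calls over all circRNAs tested fell too, from 636 of 4406 in the main fit. In the same order they were 538 of 4406, 347 of 3620, 438 of 4406, 507 of 4581 and 491 of 4583. Beside Fech, Mbd4, Tle1, Pprc1, Ckap5, Slc12a2, Map2k1, Bmpr1b, Itga6, Eed, the Stk39 pair and a ring each of Fam126a and Asxl2, they were Memo1, Dnajc1, Hip1, Sec24b and a circRNA with no gene on its strand. The last, at chr4:141966372-141967259, was at 129, 116 and 311 CPM in PP, 55.7, 70.4 and 40.0 CPM in DP, and 58.3, 34.7 and 41.0 CPM in N, with a log2 fold change from PP to N of -1.95 ± 0.52 (SE, edgeR adjusted p = 0.0109). Sec24b, a coat protein of vesicles that leave the endoplasmic reticulum, was at 410, 515 and 263 CPM in PP, 258, 270 and 236 CPM in DP, and 165, 257 and 182 CPM in N. Hip1, a clathrin adaptor, was at 130 ± 39.3 CPM in PP, 69.5 ± 9.22 in DP and 51.5 ± 8.74 in N (SD, n = 3).

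Features that the rule did not use were set beside those of all circRNAs, without a test. Counted length had a median of 429 bases (quartiles 310 and 637) in members, 450 in the 111 that met the rule without PP3, and 533 (336 and 882) in all, and 9.09% of members but 20.1% of all were at least 1000 bases long. The genomic span had a median of 5986, 5730 and 6051 bases in these sets. The mean count, for which the rule set a minimum, had a median of 17.6, 13.7 and 24.7 in the same sets. Reads were counted over exons, so length and count are tied, and the part of count in the difference in length was not tested. Of the members 259 (98.1%) began and ended at annotated exon ends, as 98.4% of all did. Exons could be assigned to 233 members by their counted length, with a median of 3 exons in members and in all. GC content, for circRNAs with assigned exons only, had a median of 46.9% in 233 members, 46.7% in the 97 of these that met the rule without PP3 and 48.3% in 3646 of all. The intron downstream of the ring, known for these circRNAs only, had a median of 5580 bases in 97 members that met the rule without PP3, 11325 in 136 that did not and 6019 in 3645 of all. The intron upstream had a median of 8140 bases in 96, 11240 in 136 and 8034 in 3629 circRNAs of these sets.

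MiRNAs pair with target RNAs mainly through their seed, bases 2 to 8, and circRNAs rich in such sites have been studied as sponges. Also planned was miR-124-3p, but no sequence was matched for it in the reference used, so it was not counted. The heptamers that pair with 4 other miRNAs known from neural cells were counted in the 233 members with assigned exons, on the strand of the ring and across its junction, with seeds taken from RefSeq (GRCm38.p6).
miR-9-5p: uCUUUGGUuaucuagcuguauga
let-7a-5p: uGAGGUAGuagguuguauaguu
miR-92a-3p: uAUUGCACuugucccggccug
miR-7a-5p: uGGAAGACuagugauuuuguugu

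The capitals mark the seed. ACCAAAG, which pairs with miR-9-5p, was in 6.44% of members and 8.61% of all 3646 circRNAs with assigned exons, CTACCTC (let-7a-5p) in 6.01% and 5.70%, GTGCAAT (miR-92a-3p) in 3.43% and 2.61%, and GTCTTCC (miR-7a-5p) in 6.01% and 5.24%. ACCAAAG was in 11 of the 97 placed members that met the rule without PP3 (11 genes) and in 4 of the 136 that did not (3 genes), and GTCTTCC in 2 (2 genes) and 12 (6 genes). CTACCTC was in 5 (3 genes) and 9 (5 genes), and GTGCAAT in 3 (3 genes) and 5 (2 genes). Overlapping rings of a gene hold the same site, so these counts are not of separate sites. No member held more than 2 copies of any of these heptamers, and the 2 copies were of ACCAAAG in Fcho2. A match is a run of letters and not a binding site.

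Membership turned on small differences near each threshold. Just inside DP/PP of 0.67 were Baat1 (0.6692), Ahctf1 (0.6685) and C330019G07Rik (0.6680), and just outside Ankhd1 (0.6701), a circRNA of Telo2 (0.6702) and one of Elf2 (0.6707), a gene with 2 members. At the lower bound of N/DP, Usp54 (0.674), Rev1 (0.674) and Rnf145 (0.675) were inside and Ndufs1 (0.669), Nup205 (0.665) and Abce1 (0.662) outside. At its upper bound, Txndc11, the shorter Ntrk2 ring (both 1.49) and an Nphp4 ring (1.48) were inside, and Vps33a (1.501), Telo2 (1.51) and a second Nphp4 ring (1.53) outside. By mean count, Sos2, Fcho2 and Eif2c3 were inside at 8, and Cdk12, Brpf3 and Snx25 (a second ring of that gene) outside at 7.89.

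When a library was left out of the rule, it gave values that the choice had not used. Without PP1 332 circRNAs met the rule, and PP1 was above their DP mean in 51.2% of them, against 51.0% of all circRNAs. For PP2 the shares were 44.6% of 341 against 52.1%, and for PP3 36.6% of 279 against 37.3%. A DP library left out was below the PP mean in 92.0% (DP1), 94.7% (DP2) and 94.7% (DP3) of the circRNAs that met the rule without it, against 49.5%, 51.7% and 55.7% of all. In both cases the mean set against the library had itself entered the rule, so the share over all circRNAs is not the value that no difference would give, and nothing is read from these shares.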

How the data were processed

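After RNase R digestion of total RNA, strand-specific libraries were made with no poly(A) selection and read as single reads of 150 bases. The authors used gsnap for alignment to mm9 and called circRNAs with find_circ among reads left unaligned. Per the submitters' processing notes, bcl2fastq 1.8.4 and featureCounts of Subread 1.6.0 were used. The table that the authors deposited holds raw counts, summed for each circRNA over its expressed features.

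CPM were computed from the counts without 27 high-count entries (1 on chromosome 5 and 26 in a cluster on chromosome 17). The members and gene lists were chosen with earlier results of these data known. Groups were compared in R 4.3.3 by edgeR 4.0.16 (TMM, filterByExpr, quasi-likelihood test, Benjamini-Hochberg adjustment over all circRNAs tested, threshold 0.05) in 1 model of 9 libraries without a block, and the steps were tested on simulated data. DESeq2 1.42.0 was an alternative. Exons came from GENCODE vM1 on mm9, by circRNA ends and counted length. Named were the 12 members of highest mean CPM, those called lower in DP, the 10 smallest DP/PP ratios among members with at least 20 mean counts and no overlap of PP with DP or N, members of the receptor kinase, radial glia, Notch and other-cell lists, those nearest each threshold and genes with at least 3 members. Other members were named after their values were seen, among them those called lower in N than in PP. Python 3.11.15, numpy 2.4.6, pandas 2.3.3 and matplotlib 3.10.9 were used. The median member count per library ran from 6 (N1) to 22 (DP2 and N2).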

Additional observations from a re-analysis of the deposited data

How the results depend on the processing

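The rule gave 264 circRNAs, and 223 to 341 when 1 library was left out, of which 111 (without PP replicate 3) to 229 (without N replicate 1) were members. A minimum mean count of 16 gave 146 and at least 10 counts in every library 74. Median in place of mean CPM gave 211, of which 96 were members. Leaving out PP replicate 3 and N replicate 1 together, a choice made after seeing the data, gave 315, of which 91 were members, and edgeR then called 40 of the 264 members lower and 9 higher in DP than in PP (4.90% and 9.08% of all tested), and 40 lower and 22 higher in N (20.6% and 21.6%).

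The 2 members that edgeR called lower in DP became 1 with RLE, 1 with no filter and 1 with at least 10 counts in every library, 0 with total counts (6 at an unadjusted p under 0.05), 3 in DESeq2, and 0 to 8 when 1 library was left out (28 to 138 at an unadjusted p under 0.05). It was 0 without any single DP library, PP replicate 1 or PP replicate 2, 1 without N replicate 2 or N replicate 3, 4 without N replicate 1 and 8 without PP replicate 3. Over all circRNAs tested, 17 of 4406 were called lower in DP in the main fit. The counts were 16 of 4406 with RLE, 17 of 5281 with no filter and 4 of 1262 with at least 10 counts in every library. They were 1 of 4406 with total counts, 34 of 5281 in DESeq2, and 1 to 58 when 1 library was left out. The 19 called lower in N became 4 with total counts, 10 with at least 10 counts in every library, 4 with only PP and N in the fit, 13 in DESeq2, and 3 (without N replicate 3), 5 (without N replicate 2) to 35 (without PP replicate 2) when 1 library was left out. Over all circRNAs tested, 636 of 4406 were called lower in N in the main fit. In the order of these settings the counts were 438 of 4406, 121 of 1262, 347 of 3620, 664 of 5281, 491 of 4583, 507 of 4581 and 581 of 4585. The 74 members with all PP above all DP libraries became 40 with total counts and 80 to 115 (without PP replicate 3) when 1 library was left out.

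Same-numbered libraries did not deviate together (mean r -0.033, against 0.024 between other pairs), so the numbers were not taken as a pairing. With the replicate block the counts were 0 lower in DP (38 at an unadjusted p under 0.05) and 9 lower in N, where 5 and 538 of all 4406 circRNAs tested were called. Total counts moved the median log2 N/DP of all circRNAs from -0.19 to -0.36 and TMM to -0.02, while members had -0.09, -0.29 and 0.11 (column sums, total counts and TMM). With total counts 182 circRNAs met the rule, of which 142 were members, and with TMM 327, of which 232 were. The cause of these shifts was not tested. The median mean count of the 111 members was 13.7, and at a count of 13.7 counting error alone is 27.1% of the value. It is larger in libraries where a member has fewer counts, such as N1, where the median over all members was 6.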
